A study of Mus musculus with 20 samples.

Results

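The genes described here are 7 mouse genes of the major histocompatibility complex (MHC) class II presentation pathway: H2-Aa, H2-Ab1, H2-Eb1, Cd74, Ciita, H2-DMa and H2-DMb1. They were chosen by name, and they are 7 of 48967 genes with exon counts. All 7 passed the low count filter and were among the 18035 genes tested. The data are RNA-seq of hearts from wild-type C57BL/6 mice aged 12 weeks, of either sex. The samples fall into 4 groups of 5, named Chow-F, Chow-M, PA-F and PA-M, with F for female and M for male. Chow and a high-fat diet are the diets that the study names, and PA is taken here to stand for the high-fat diet because no other name is left. The sources used here do not say what PA stands for, how long the diets lasted, or that each library came from a separate animal. The p-values therefore measure the spread between these samples, which may be technical. Library Chow-M 4 was counted in another way and was left out, so 4 libraries of chow males were compared with 5 of each other group.

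MHC class II molecules are surface receptors, each made of an alpha and a beta chain, that show peptides from engulfed proteins to CD4+ T cells. They are made mainly by dendritic cells, B cells and macrophages, and in the heart they are best known from the resident macrophages and dendritic cells. Other cells, endothelial cells among them, can be brought to make them by interferon-gamma, which raises Ciita, the coactivator that class II transcription depends on. Ciita does not bind DNA itself. It is recruited by RFX, CREB and NF-Y factors bound to the X and Y boxes in front of class II genes.

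H2-Aa and H2-Ab1 encode the alpha and beta chains of the I-A molecule, and H2-Eb1 the beta chain of I-E. C57BL/6 mice carry a deletion in front of the gene for the I-E alpha chain and are known to make no I-E alpha. Cd74 encodes the invariant chain, which blocks the peptide groove of new class II molecules and steers them to endosomes. H2-DMa and H2-DMb1 encode chains of H2-DM, the endosomal helper that removes the last fragment of the invariant chain and lets peptides load. In GRCm38, 5 of the genes lie in the MHC on chromosome 17: H2-DMa at 34119541 to 34139101, H2-DMb1 at 34153072 to 34160230, H2-Ab1 at 34257689 to 34269419 and H2-Eb1 at 34305867 to 34316674, all on the plus strand, and H2-Aa at 34282744 to 34287823 on the minus strand. Ciita lies on chromosome 16 at 10480059 to 10528418, on the plus strand. The annotation lists all 7 as protein-coding, and all values are sums over their exons.

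The sequences just before the RefSeq starts of H2-Aa, H2-Eb1 and H2-DMb1 are shown with their class II boxes. The part of these boxes in the levels described below was not tested. RefSeq promoter windows (GRCm38.p6, 250 bases before to 50 bases after a start) matched H2-Aa, H2-Eb1, H2-DMb1 and H2-DMa, and none was matched for H2-Ab1, Cd74 and Ciita. The stretches run 5′ to 3′ on the gene's strand from -110 to -11, counted from the RefSeq start, and capitals mark matches to the motifs listed after them. The stretch of H2-DMb1 lies after the annotated start given above, 34153072, within the first counted exon piece, which ends at 34153453.
H2-Aa (chr17:34287834-34287933, minus strand): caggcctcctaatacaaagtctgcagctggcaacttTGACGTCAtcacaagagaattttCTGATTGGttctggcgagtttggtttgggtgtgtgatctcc
H2-Eb1 (chr17:34305757-34305856, plus strand): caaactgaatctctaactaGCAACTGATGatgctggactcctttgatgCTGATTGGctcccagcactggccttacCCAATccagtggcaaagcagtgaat
H2-DMb1 (chr17:34153081-34153180, plus strand): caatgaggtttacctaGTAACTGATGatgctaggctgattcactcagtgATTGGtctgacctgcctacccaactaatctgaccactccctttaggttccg

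The Y box was searched as CTGATTGG and by its core ATTGG, the X1 box as GNNACNGAT and by its core ACNGATG, the X2 box by its core TGACG and the interferon regulatory factor element as GAAANNGAA, on both strands. Each core overlaps its own box. H2-Aa held the Y box at -51 to -44 and the X2 core at -74 to -70 and, on the other strand, at -71 to -67. H2-Eb1 held the Y box at -62 to -55, the X1 box at -91 to -83 and, on the other strand, a further Y core at -35 to -31. H2-DMb1 held the X1 box at -94 to -86 and the Y core at -61 to -57. Outside the stretch shown, H2-Aa held an X1 core on the other strand at -232 to -226, and the only match in the windows of H2-DMa was a Y core at -198 to -194. The interferon regulatory factor element matched none of these windows. Among all 32851 RefSeq windows, 4.1% held CTGATTGG, 37.4% its core, 7.82% GNNACNGAT, 9.85% its core, 20.8% TGACG and 8.56% GAAANNGAA. X1 and Y cores stood together in 3.65% of windows. These matches describe letters and were not tested as binding sites.

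CPM, the unit of all levels below, divides the counts of a gene by the library size after TMM adjustment. The 19 libraries held 57805110 to 85794067 counts each, and 3 counts, taken as the floor for a gene not seen, are worth 0.0359 to 0.0538 CPM. Counting error is therefore small for the chains and Cd74, which drew 1397 to 16610 counts in a library, and larger for Ciita, with 63 to 226 counts. Libraries PA-F 4 and PA-F 5 stand apart from the rest on the first axis of variation, which holds 46.1% of the variance (95 and 131.7, against -20.9 to -1.91).

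Per kilobase of counted exon, the chains and Cd74 were the most abundant members and Ciita the scarcest. Cd74 had a median of 72.9 CPM per kb over the 19 libraries, followed by H2-Eb1 at 28.1, H2-Aa at 19.6 and H2-Ab1 at 16.5. H2-DMa and H2-DMb1 followed at 1.68 and 1.61 CPM per kb, and their ranges over libraries, 1.05 to 3.82 and 1.12 to 3.44, overlapped almost fully. Ciita was lowest at 0.381 CPM per kb, between 0.182 and 0.584. The levels of genes relative to each other depend on the counting. A read over several pieces counts in each, which can raise genes with many short pieces per kilobase. The order of the chains depends on the length used as well. Of the counted bases of H2-Aa, 750 lie in 3 pieces that drew almost no counts, and without such pieces, a choice made after seeing the data, H2-Aa was at 32.4 CPM per kb, H2-Eb1 at 28.1 and H2-Ab1 at 21.9. H2-Eb1 was thus counted at a level between those of the I-A chains, or above both, in a strain known to lack I-E alpha. The I-E alpha pseudogene entry, H2-Ea-ps, had 0 counts in all 19 libraries, which allows up to 3 counts in each.

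In chow females H2-Aa was at 37.6, 33.2, 88.0, 31.0 and 23.2 CPM in libraries 1 to 5. Library 3 lay far above the other 4, which did not reach the level of that library in any other group either. In high-fat females H2-Aa was at 29.2, 53.1, 47.3, 45.8 and 35.8 CPM, all below Chow-F 3. Libraries 2, 3 and 4 lay above Chow-F 1, 2, 4 and 5, and libraries 1 and 5 within the range of those 4. In chow males it was at 35.9, 37.2, 40.6 and 35.1 CPM in libraries 1, 2, 3 and 5, the tightest group. In high-fat males it was at 30.3, 31.2, 49.6, 37.4 and 36.7 CPM, with library 3 above all chow males and libraries 1 and 2 below them.

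H2-Ab1, the partner chain of H2-Aa, followed the same order within the groups. It was at 27.2, 24.1, 69.2, 22.1 and 18.9 CPM in Chow-F 1 to 5 and at 23.6, 38.8, 38.0, 35 and 26.4 CPM in PA-F 1 to 5. In males it was at 25.6, 28.3, 29.2 and 25.2 CPM in Chow-M 1, 2, 3 and 5 and at 23.4, 24.6, 35.1, 29.8 and 27.0 CPM in PA-M 1 to 5. All 4 groups overlapped, and Chow-F 3 alone lay above 38.8 CPM.

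H2-Eb1, the I-E beta chain, was at 33.9, 30.2, 83.4, 27.6 and 23.9 CPM in Chow-F 1 to 5 and at 29.0, 51.9, 45.3, 42.0 and 32.4 CPM in PA-F 1 to 5. In males it was at 31.2, 33.2, 36.1 and 30.1 CPM in Chow-M 1, 2, 3 and 5 and at 26.3, 26.8, 40.7, 34.4 and 33.4 CPM in PA-M 1 to 5. The high and low libraries were those of the I-A chains, with PA-F 2 the highest after Chow-F 3.

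Cd74, the invariant chain, was at 98.8, 94.1, 235, 78.0 and 72.0 CPM in Chow-F 1 to 5 and at 91.1, 148, 133, 132 and 102 CPM in PA-F 1 to 5. In males it was at 105, 102, 115 and 99.1 CPM in Chow-M 1, 2, 3 and 5 and at 89.1, 85.9, 130, 109 and 110 CPM in PA-M 1 to 5. Chow-F 1, 2, 4 and 5 lay below every chow male, and Chow-F 3 lay above every library of the series compared here.

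The H2-DM chains lay far lower and showed the same outlying sample. H2-DMa was at 2.84, 2.29, 6.27, 2.32 and 1.73 CPM in Chow-F 1 to 5 and at 2.51, 3.83, 3.41, 3.67 and 2.41 CPM in PA-F 1 to 5. H2-DMb1 was at 2.38, 2.71, 5.11, 1.97 and 2.33 CPM in Chow-F 1 to 5 and at 2.08, 2.88, 2.93, 2.37 and 2.35 CPM in PA-F 1 to 5. Among males, H2-DMa ran from 2.45 to 3.35 CPM on chow and from 2.11 to 3.34 CPM on high fat, and H2-DMb1 from 2.22 to 2.81 CPM and from 1.67 to 3.15 CPM. The male groups overlapped for each chain.

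Ciita, the coactivator of the pathway, had another pattern. It was at 2.04, 1.78, 2.84, 1.48 and 1.46 CPM in Chow-F 1 to 5 and at 1.56, 2.89, 3.07, 1.75 and 0.955 CPM in PA-F 1 to 5. In males it was at 2.68, 2, 2.06 and 2.40 CPM in Chow-M 1, 2, 3 and 5 and at 1.80, 2.47, 1.79, 1.97 and 2.13 CPM in PA-M 1 to 5. Chow-F 3 was the highest of its own group but lay below PA-F 2 and PA-F 3, and the lowest value of all was that of PA-F 5, one of the libraries that stand apart.

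**Figure D1:**
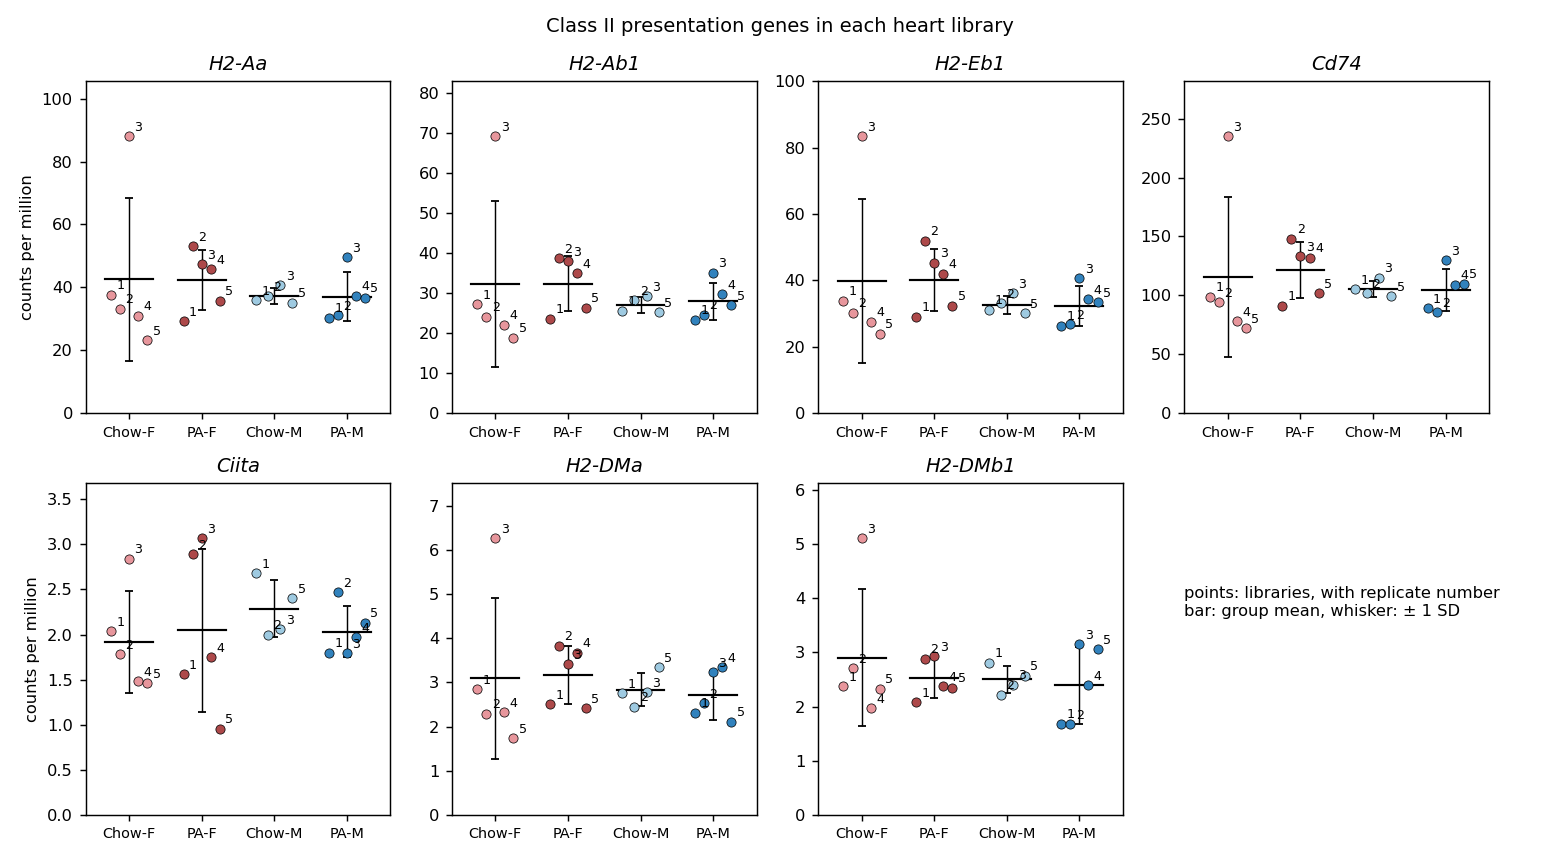
Level in CPM of each of the 7 genes in the 19 libraries, by group, with the replicate number beside each point, the group mean as a bar and 1 SD as a whisker. Chow-F 3 is the highest of its group in all 7 panels and the highest of all libraries in all but that of Ciita, where PA-F 3 reaches 3.07 CPM.

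In group means the members differed little. H2-Aa averaged 42.6 ± 25.9 CPM in Chow-F, 42.2 ± 9.56 in PA-F, 37.2 ± 2.43 in Chow-M and 37.0 ± 7.69 in PA-M (SD, n = 5, 5, 4 and 5), and each step in that order was smaller than the SD of at least 1 of the neighbouring groups. Cd74 averaged 121 ± 23.7 CPM in PA-F, 116 ± 67.7 in Chow-F, 105 ± 6.99 in Chow-M and 105 ± 17.9 in PA-M. H2-Ab1 averaged 32.4 ± 6.92 CPM in PA-F and 32.3 ± 20.8 in Chow-F, and H2-Eb1 40.1 ± 9.37 and 39.8 ± 24.7, above male means of 27.1 to 28.0 and of 32.3 to 32.7 CPM. Ciita was the member with its highest mean in chow males, 2.28 ± 0.315 CPM, against 1.92 ± 0.567 in Chow-F, 2.04 ± 0.905 in PA-F and 2.03 ± 0.283 in PA-M. For H2-DMa the means ran from 2.70 ± 0.551 in PA-M to 3.17 ± 0.663 in PA-F, and for H2-DMb1 from 2.39 ± 0.715 in PA-M to 2.90 ± 1.26 in Chow-F. In bulk tissue, fewer cells of a type and less RNA per cell cannot be told apart.

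The first comparison asks whether the high-fat diet changed these genes in female hearts. In those samples 0 of 7 members passed the test (edgeR's quasi-likelihood F-test, adjusted by Benjamini-Hochberg), against 2.53% of all genes tested. The log2 differences, PA-F minus Chow-F, were 0.07 ± 0.25 (SE) for Cd74, -0.01 ± 0.27 for H2-Aa, 0.00 ± 0.27 for H2-Ab1 and 0.01 ± 0.27 for H2-Eb1. For the other members they were 0.09 ± 0.25 for Ciita, 0.04 ± 0.27 for H2-DMa and -0.20 ± 0.23 for H2-DMb1. The smallest edgeR adjusted p was 0.645. The 95% intervals of the 7 differences together spanned -0.69, for H2-DMb1, to 0.62, for Ciita, on the log2 scale. Changes within the interval of a member were not excluded by these samples. The median difference of the members was 0.01, against -0.02 over all genes tested.

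This comparison rests on Chow-F 3. Without that library all 7 log2 differences were above 0, with a median of 0.47, and none was called by edgeR, against 1.95% of genes in that fit. Cd74 stood 0.50 ± 0.15 higher in PA-F (adjusted p = 0.0857 in edgeR), H2-Ab1 0.49 ± 0.15, H2-Eb1 0.47 ± 0.16, H2-DMa 0.47 ± 0.18 and H2-Aa 0.44 ± 0.17. These 5 had an unadjusted p under 0.05, and Ciita (0.27 ± 0.25) and H2-DMb1 (0.10 ± 0.18) did not. Of all genes in that fit, 3285 of 18014 had such a p. When PA-F 4 and PA-F 5 were left out as well, a choice made after seeing the data, edgeR called 2 members higher, Cd74 by 0.53 ± 0.15 (adjusted p = 0.0435) and H2-Ab1 by 0.54 ± 0.15 (adjusted p = 0.0495), against 2.65% of genes called higher. Since Chow-F 3 was singled out by the level of these same genes, those p-values are too small and are given as a description. The fit without Chow-F 3, PA-F 4 and PA-F 5 also called immune markers higher. They were Ccr2 (0.99 ± 0.26) and C1qb (0.31 ± 0.08) of the macrophage list, Flt3 (1.98 ± 0.47) of the dendritic cell list and Cd52 (0.57 ± 0.16) of the leukocyte list. Other genes of these lists were not called. With all libraries 0 genes of each list were. Their part in the class II levels was not tested. Leaving out PA-F 4 and PA-F 5 alone gave a median of 0.08 and moved Ciita to 0.39 ± 0.21 (adjusted p = 0.318 in edgeR), with 0 members called against 4.97% of genes. Ccr2 and Flt3 were called higher in that fit too (edgeR adjusted p of 0.0246 and 0.0346).

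In male hearts the diet comparison gave 0 of 7 members called by edgeR, against 0.765% of genes. Of the members 0 had an unadjusted p under 0.05, against 1538 of 18035 genes. The log2 differences, PA-M minus Chow-M, lay between -0.17 ± 0.27 for Ciita and 0.05 ± 0.29 for H2-Ab1, with Cd74 and H2-Aa each at -0.01. The lowest interval bound was -0.73 and the highest 0.65, and every adjusted p was 0.999. The median was -0.01, against 0.00 over all genes. The difference between the diet effects of the sexes was 0.07 ± 0.36 for Cd74 and at most 0.26 ± 0.37, for Ciita, and edgeR called 0 of 7 members and 0% of all genes. Without PA-F 4 and PA-F 5 the value for Ciita was 0.55 ± 0.29 (adjusted p = 0.492 in edgeR). Without Chow-F 3 the median of this difference over the members moved from 0.03 to 0.44, with 0 called and 3 at an unadjusted p under 0.05. Over all genes in that fit 1838 of 18014 had such a p.

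Between the sexes on chow edgeR called 0 of 7 members, against 3.23% of genes. With all libraries 6 members had higher values in females, H2-Eb1 by 0.29 ± 0.29, H2-Ab1 by 0.25 ± 0.29, H2-DMb1 by 0.21 ± 0.25 and H2-Aa by 0.19 ± 0.29, and Ciita stood at -0.25 ± 0.27. Without Chow-F 3 the sign of those 6 turned. Cd74 went from 0.14 ± 0.27 to -0.30 ± 0.15 (adjusted p = 0.388 in edgeR), H2-DMa from 0.12 ± 0.28 to -0.30 ± 0.19 and H2-Aa to -0.25 ± 0.18, and Ciita reached -0.43 ± 0.26. In that fit 0 members were called, against 2.16% of genes.

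On the high-fat diet, where Chow-F 3 is not part of the contrast, all 7 members had higher values in females, but the 2 smallest did not keep that sign. Ciita was also found below 0 with DESeq2, with its size factors, with the replicate block, with GC offsets and with single libraries left out (to -0.19), and H2-DMb1 with GC offsets and with single libraries left out (to -0.0309). Of the 7, 0 were called by edgeR, against 10.4% of genes. The differences, PA-F minus PA-M, were 0.31 ± 0.27 for H2-Eb1 (adjusted p = 0.436), 0.23 ± 0.27 for H2-DMa, 0.21 ± 0.27 for H2-Ab1, 0.21 ± 0.25 for Cd74, 0.19 ± 0.27 for H2-Aa, 0.08 ± 0.23 for H2-DMb1 and 0.01 ± 0.25 for Ciita. Without PA-F 4 and PA-F 5 Ciita moved to 0.30 ± 0.21 (adjusted p = 0.405 in edgeR), and 0 members were called. Chow-F 3 still enters the shared estimate of the spread. Without it the same differences had smaller errors, 0.31 ± 0.15 for H2-Eb1 (adjusted p = 0.183 in edgeR), and again 0 members were called, against 9.58% of genes in that fit.

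**Figure D2:**
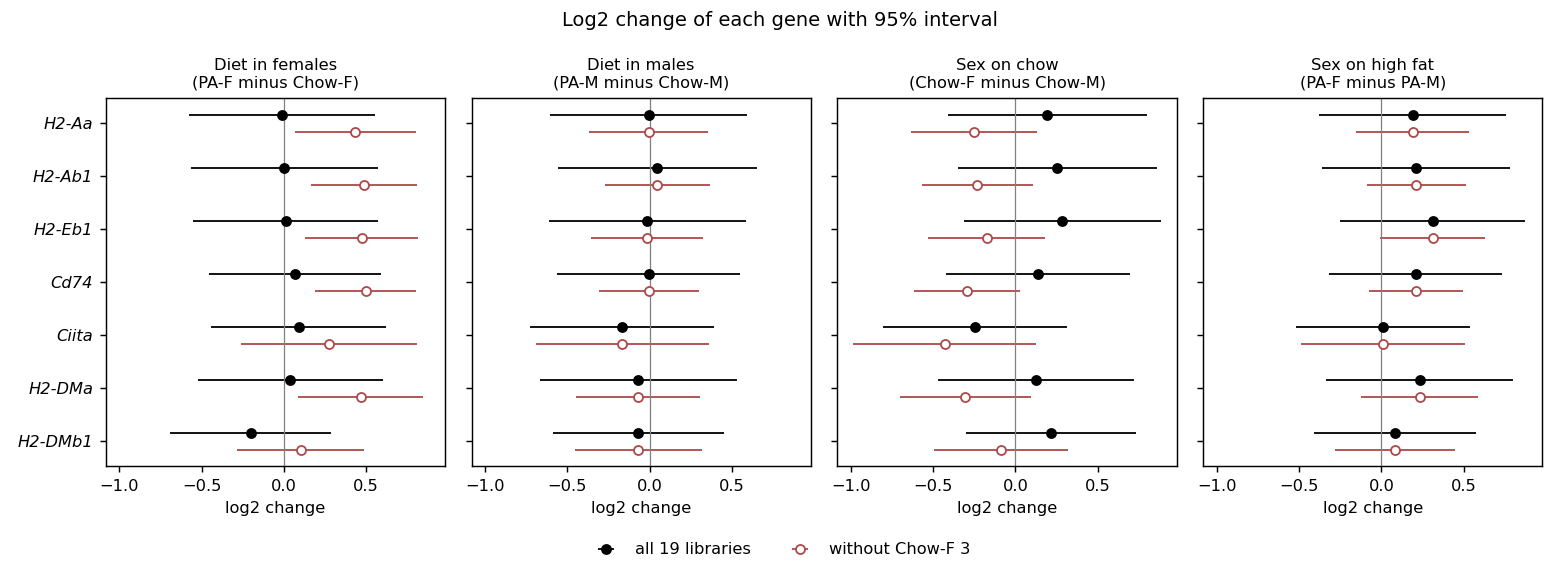
Log2 difference of each gene in the 4 pairwise comparisons, with 95% intervals, from the fit of all 19 libraries (filled) and without Chow-F 3 (open). Leaving out Chow-F 3 moves the values for diet in females up, to 0.50 for Cd74, and turns the sign of 6 genes in the sex on chow panel, while the panels for diet in males and sex on high fat keep their values.

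Within a library the I-A chains, H2-Eb1 and Cd74 kept near-constant proportions. The size of each ratio depends on the counting of a read in every piece it covers, so its range over libraries is described here. Over 19 libraries H2-Aa ranged 3.8-fold and H2-Ab1 3.66-fold, while their ratio per kb stayed between 1.07 and 1.23, a range of 1.15-fold. The ratio of H2-Eb1 to H2-Ab1 lay between 1.51 and 1.85, and that of Cd74 to H2-Ab1 between 3.98 and 4.80, with the lowest value in Chow-F 3. The I-A, I-E and invariant chain genes thus rose and fell in step from library to library. H2-DMa to H2-Ab1 varied more, from 0.0781 to 0.133, and H2-DMa to H2-DMb1 from 0.626 to 1.40, where a library holds 118 to 443 counts of a gene. Ciita to H2-Ab1 varied 2.9-fold, from 0.0112 in PA-F 5 to 0.0326 in Chow-M 1, and was low in Chow-F 3 at 0.0128, where the chains were high and Ciita was not raised to the same degree.

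**Figure D3:**
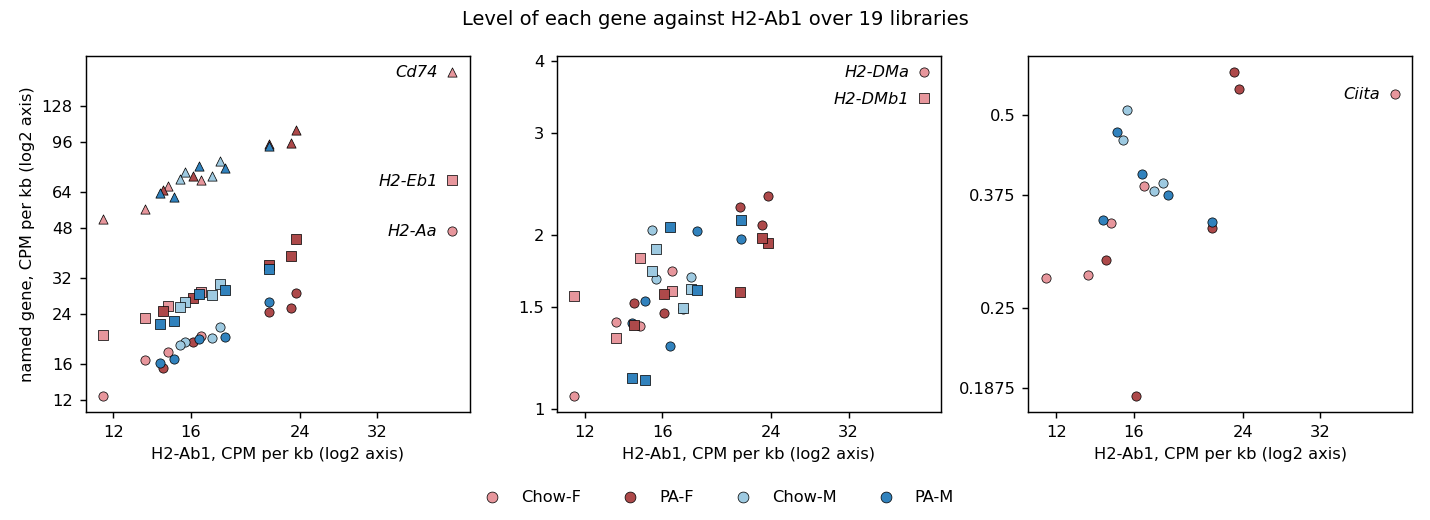
Level of each gene (CPM per kb, log2 axes) against that of H2-Ab1 in the same library, colored by group. In the left panel H2-Aa (circles), H2-Eb1 (squares) and Cd74 (triangles) rise in parallel with H2-Ab1, in the middle panel H2-DMa (circles) and H2-DMb1 (squares) scatter more, and in the right panel Ciita shows the loosest relation, with Chow-F 3 at the right edge of each.

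Chow-F 3 had 3 times the mean of the other 4 chow females for H2-Ab1, 2.89 times for H2-Eb1, 2.82 times for H2-Aa, 2.74 times for Cd74, 2.73 times for H2-DMa, 2.18 times for H2-DMb1 and 1.68 times for Ciita. Over 13508 genes averaging 1 CPM or more, the median of this ratio was 0.997, and 1.33% of them exceeded 1.5. Genes of MHC class I presentation, which shows peptides from inside the cell to CD8+ T cells, were high in the same library. The class I heavy chain H2-K1 was at 702 CPM there, against 147 to 342 in the other 18 libraries, and B2m, the light chain, at 469 against 112 to 249. Tap1, a subunit of the peptide transporter, was at 62.1 CPM against 11 to 28.0, and Nlrc5, the class I counterpart of Ciita, at 30.9 against 4.52 to 16.1. Of 14 class I presentation genes, 11 had their highest level of all libraries in Chow-F 3, against 3.41% of the 13508 genes. Among the class II regulators, Irf1, an interferon-induced transcription factor, was at 55.3 CPM against 22.6 to 42.0. Rfx5, Rfxap and Rfxank, the subunits of the factor that binds the X box, were at 0.964, 1.01 and 1.04 times the other chow females. Cd274, a ligand that restrains T cells, was at 24.5 CPM against 4.39 to 10.6.

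Markers of the cell types that carry class II were less changed in that library. The 15 macrophage markers summed to 244 CPM in Chow-F 3 and to 191 to 256 CPM elsewhere. Their median ratio to the other chow females was 1.16. The complement genes C1qa (23.8 CPM), C1qb (22.1) and C1qc (22.0) were highest there, each within 1.5 CPM of another library. These 3 of 15 stand against 3.41% of genes averaging 1 CPM or more. The 10 dendritic cell markers summed to 20.2 CPM, against 15.7 to 24.1, and the 8 B cell markers to 8.52 CPM, against 5.42 to 9.46. The B cell markers Ms4a1 (0.0425 CPM) and Pax5 (0.0849) were near the floor, and the 8 T cell markers summed to 4.74 CPM, against 3.45 to 5.14, with Cd3e at 0 counts. The 7 general leukocyte genes summed to 67.3 CPM, against 45.3 to 67.4, with a median ratio of 1.34. Endothelial, fibroblast and cardiomyocyte markers had median ratios of 1.05, 0.977 and 1.04. The part of any of these cell types in the class II levels was not tested.

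**Figure D4:**
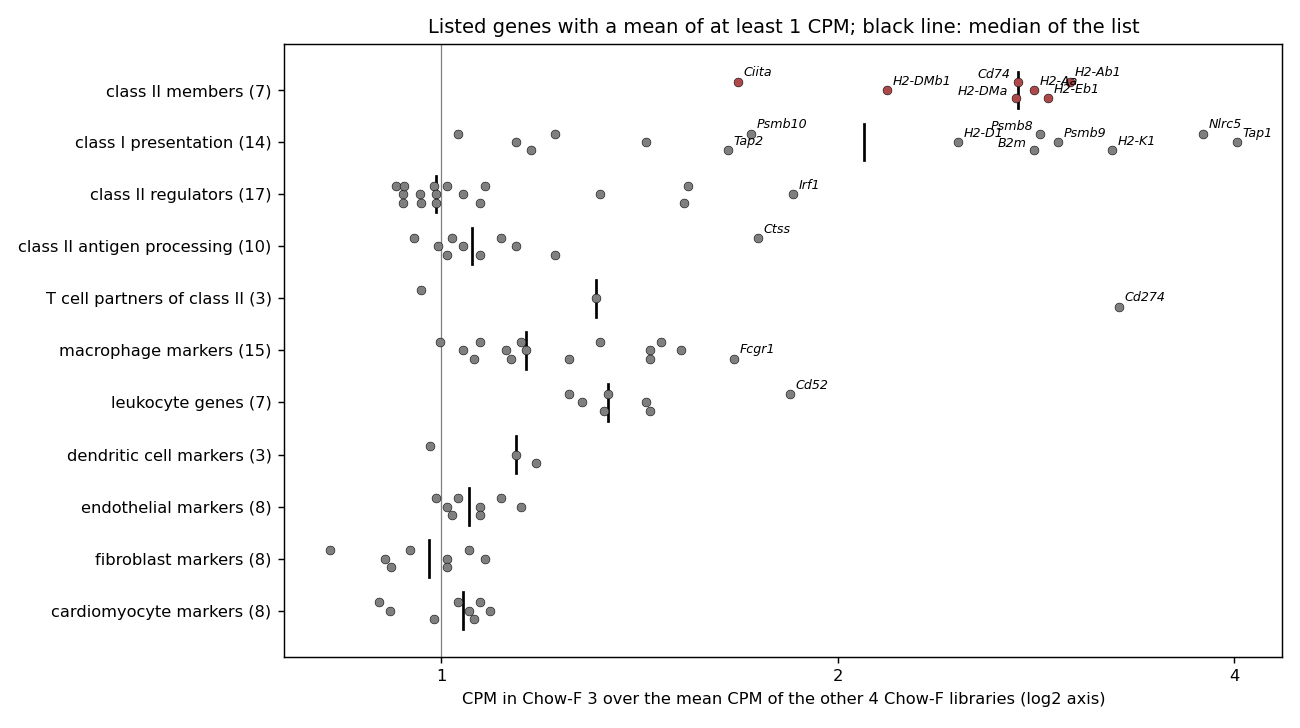
Level of each listed gene in Chow-F 3 over the mean of the other 4 chow females (log2 axis), for genes averaging 1 CPM or more, grouped by list, with the list median as a black line. The 7 class II genes lie between 1.68 and 3, and the class I list has a median of 2.1, while the 6 marker lists plotted, from macrophages to cardiomyocytes, have medians between 0.977 and 1.34.

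The 9 genes most alike to H2-Aa, H2-Ab1, H2-Eb1 and Cd74 in their variation within groups were sought over 17 libraries, without PA-F 4 and PA-F 5. They were H2-K1 (Pearson r 0.940 with the mean z-score of the 4 genes), Gbp2 (0.938), Tap1 (0.937), H2-D1 (0.937), Parp10 (0.937), Lgals3bp (0.919), Bst2 (0.918), Parp14 (0.914) and Uba7 (0.907). Gbp2, a guanylate-binding protein, and Bst2, which tethers virus particles to the cell, are known as interferon-induced genes. Without Chow-F 3, over 16 libraries, the same correlations were lower, 0.780 for H2-K1 and Gbp2 and 0.676 for Uba7, and the rank of these 9 genes among all outside the members fell to between 16 and 102. These values describe 1 set of libraries, processed together, and they carry no p. By the same measure H2-DMa had an r of 0.912, H2-DMb1 of 0.854 and Ciita of 0.700, and without Chow-F 3 these were 0.725, 0.692 and 0.508. With PA-F 4 and PA-F 5 included, over all 19 libraries, Parp14 had an r of only 0.380. The rest of the 9 genes ran from 0.834 for Uba7 to 0.939 for H2-K1.

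Other genes of the pathway were read from lists, and counts of called genes here stand beside the shares of all genes given above. Of the remaining class II chains and helpers, H2-Eb2 (0 to 0.112 CPM) and H2-Oa (0 to 0.272 CPM) were at or near the floor. H2-DMb2, the second DM beta gene, ran from 0.213 to 0.770 CPM. H2-Ob, the beta chain of H2-O, which holds H2-DM back, ran from 0.495 to 1.03 CPM. Of the 3 tested, 1 was called in the sex comparison on high fat, H2-Ob, higher in females by 0.51 ± 0.16 (adjusted p = 0.0438 in edgeR), and it was not called without Chow-F 3 (smallest adjusted p of the list 0.0530) or without PA-F 4 and PA-F 5 (0.0826). With diet, 0 of 3 were called in either sex. H2-DMb2 had the smallest p in females, at 0.60 ± 0.27 (adjusted p = 0.235 in edgeR).

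Of 17 tested class II regulators edgeR called 0 with diet in either sex. In females March8, which marks class II molecules for removal from the surface, had the smallest p, at 0.14 ± 0.05 (adjusted p = 0.135). On chow 1 of 17 was called between the sexes, Rfx5, higher in females by 0.55 ± 0.14 (adjusted p = 0.0394 in edgeR), and 0 of 17 were called without Chow-F 3. On high fat Spi1, a transcription factor of macrophages, was higher in females by 0.48 ± 0.13, and Nfyb, an NF-Y subunit, and Ifngr1, a chain of the interferon-gamma receptor, were lower, at -0.30 ± 0.08 and -0.18 ± 0.05 (edgeR adjusted p of 0.0221, 0.0251 and 0.0392). Nfyb was not called without PA-F 4 and PA-F 5 (adjusted p = 0.0827 in edgeR), and in that fit Rfx5, Nfyc, Creb1 and Nfya, all in factors of the class II boxes, were called between the sexes on chow, the first pair higher in females and the second lower.

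Of 10 genes of antigen processing in endosomes edgeR called 0 with diet in all libraries. In females 1 was called in each of the following fits. Ctsl, a cathepsin, was lower at -0.27 ± 0.07 without PA-F 4 and PA-F 5 (adjusted p = 0.0204 in edgeR), against 4.97% of genes. Without Chow-F 3, PA-F 4 and PA-F 5 Ctsl was lower too, at -0.25 ± 0.07 (adjusted p = 0.0409 in edgeR). Ctsz, a cathepsin too, was higher by 0.26 ± 0.06 without Chow-F 3 (adjusted p = 0.0321 in edgeR), against 1.95% of genes. With all libraries Lgmn, an endosomal protease, had the smallest p in females, at 0.18 ± 0.05 (adjusted p = 0.0909 in edgeR). Between the sexes on high fat 3 of 10 were higher in females, Lgmn by 0.32 ± 0.05, Ctsz by 0.29 ± 0.07 and Ifi30, which reduces disulfide bonds of antigens, by 0.43 ± 0.14 (edgeR adjusted p of 0.00162, 0.0115 and 0.0491). Ifi30 was not called without Chow-F 3 (adjusted p = 0.0564 in edgeR) or without PA-F 4 and PA-F 5 (0.0864), and the median of the list fell from 0.19 to 0.06 without the latter. The summed level of the list was 2150 and 2100 CPM in PA-F 4 and PA-F 5 and 1640 to 1860 CPM in the other libraries. In the same comparison 6 of 8 fibroblast markers were called higher in females, with sums of 2400 to 3220 CPM in PA-F and 2190 to 2350 CPM in PA-M. PA-F 4 and PA-F 5 had the highest sums, 3160 and 3220 CPM, and PA-F 1 to 3 were at 2400, 2500 and 2660 CPM. Without PA-F 4 and PA-F 5, 5 of 8 were called higher, against 10.4% of genes called in either direction. Of the immune markers, with all libraries, 3 of 15 macrophage markers and 1 of 10 dendritic cell markers were higher, and 1 macrophage marker was lower. Cd68 stood 0.61 ± 0.09 higher and Mertk at -0.34 ± 0.07 (edgeR adjusted p of 0.000497 and 0.00824), and 2 of 7 leukocyte genes, Coro1a and Cd52, were higher by 0.66 ± 0.13 and 0.62 ± 0.17. The summed level of the macrophage list was 197 to 235 CPM in PA-F and 191 to 229 CPM in PA-M. The part of these markers in the class II levels of high-fat females was not tested.

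Of 14 class I presentation genes edgeR called 0 with diet in either sex, 0 between the sexes on chow and 1 on high fat, Tapbp, higher in females by 0.36 ± 0.09 (adjusted p = 0.0189). Without PA-F 4 and PA-F 5 Tapbp was not called (0.28 ± 0.09, adjusted p = 0.0657 in edgeR) and 0 of 14 were, against 10.4% of genes. In that fit Psmb10 and Psmb8 were called higher in females on chow by 0.48 ± 0.14 and 0.79 ± 0.25 (edgeR adjusted p of 0.0294 and 0.0493), against 10.5% of genes. The chow contrast includes Chow-F 3. With that library left out as well, Psmb10 stood at 0.28 ± 0.08 (adjusted p = 0.0327 in edgeR) and Psmb8 was not called. In the sex comparison on high fat 7 of 14 were called without Chow-F 3, all higher in females, against 9.58% of genes. Those with the smallest p were Tapbp at 0.36 ± 0.06, Psmb8 at 0.59 ± 0.10, H2-D1 at 0.38 ± 0.09 and H2-K1 at 0.51 ± 0.12. Chow-F 3 is not in that contrast but widens the shared spread. In the diet comparison in females 3 of 14 were called without it, against 1.95% of genes: Tapbp at 0.29 ± 0.06, Psmb8, an immunoproteasome subunit, at 0.47 ± 0.11 and H2-D1 at 0.40 ± 0.10 (edgeR adjusted p of 0.0245, 0.0343 and 0.0402). The library left out was singled out by high levels of such genes, so these p-values are too small and are a description. Of 6 T cell partners of class II 0 were called in any of the 5 contrasts with all libraries. Without PA-F 4 and PA-F 5 Cd40, which receives help from T cells, was called higher in females on high fat by 0.73 ± 0.19 (adjusted p = 0.0184 in edgeR). Cd4 itself ran from 0.288 to 1.28 CPM.

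Cd74 is made as a short and a long form, the long one with an added exon that encodes a thyroglobulin-like domain. The gene lies on chromosome 18 at 60803848 to 60812652 (GRCm38, plus strand). The added exon, exon 7 of the long transcript at 60811294 to 60811485, drew 194 to 655 counts per library, and 11 constitutive exon pieces of 1206 bases drew 4729 to 15955. Counts per base in the added exon were 0.275, 0.259, 0.258, 0.279 and 0.278 of those in the constitutive pieces in Chow-F 1 to 5 and 0.232, 0.279, 0.242, 0.265 and 0.261 in PA-F 1 to 5. They were 0.251, 0.288, 0.258 and 0.289 in Chow-M 1, 2, 3 and 5 and 0.266, 0.258, 0.248, 0.279 and 0.262 in PA-M 1 to 5. All 4 groups overlapped, and Chow-F 3, with the highest Cd74 level, had a ratio within the range of the rest. The ratio is not the share of the long form, since reads that span several short pieces are counted in each.

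The mean ratio was 0.256 ± 0.0187 in PA-F and 0.270 ± 0.0105 in Chow-F (SD, n = 5 each), a log2 difference of -0.08 with a two-sided exact permutation p of 0.230 and 0.646 after adjustment over 4 comparisons. It was 0.263 ± 0.0114 in PA-M and 0.272 ± 0.02 in Chow-M, a log2 difference of -0.05 (exact permutation p = 0.437, adjusted 0.646). Between the sexes the log2 differences were -0.01 on chow (exact permutation p = 0.841) and -0.04 on high fat (exact permutation p = 0.484, adjusted 0.646). The smallest p these designs allow is 0.00794. No difference beyond the spread between libraries was seen in this ratio.

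**Figure D5:**
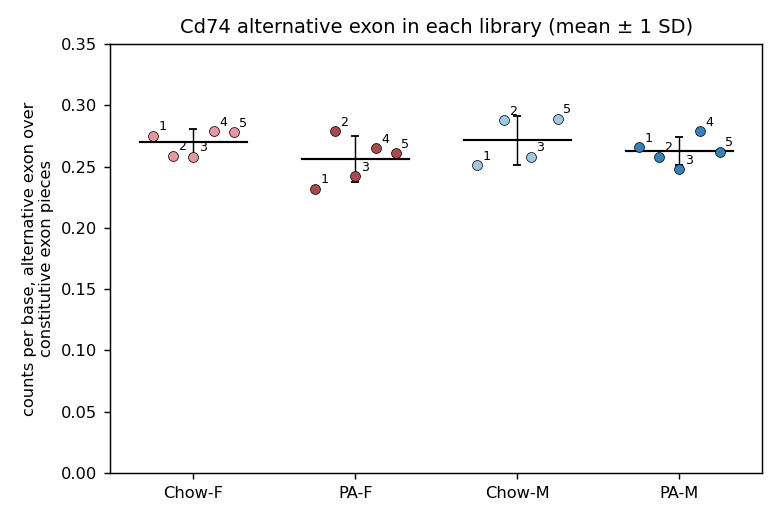
Counts per base in the added exon of the long Cd74 form over those in the constitutive exon pieces, by library and group, with the group mean as a bar and 1 SD as a whisker. The 19 values lie between 0.232 and 0.289, and the groups overlap.

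Ciita is known to start from several promoters with different first exons. The counted pieces begin at 10488178, after the annotated gene start at 10480059, so first exons before that position are not in its sums. The first counted piece (247 bases, to 10488424) had 13 counts over 19 libraries and none in 9 of them, and the next (147 bases, from 10501767 to 10501913) had 69. The last piece (1801 bases, from 10525764 to 10527564) had 518. At 0 to 2 counts a library, use of the first counted exon could not be compared between groups. For H2-Ab1 and H2-DMa the counted pieces also begin after the annotated start, at 34263209 and 34135182.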

How the data were processed

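Whole counts were deposited in 1 file per sample, for 425461 exon pieces in 19 files and per gene in that of Chow-M 4. Per the labels' protocols, RNA was selected by polyA and sequenced on a NovaSeq instrument. The submitters' processing notes name Salmon 1.5.1, DESeq2 1.32.0 and GRCm39. The files' coordinates matched GENCODE vM21 (GRCm38) for 91.3% of genes, so that build is given. The strand of counting is not given in the sources used here. Pieces were summed per gene. Pieces shared by several genes (1.17% to 1.29% of counts) were not used, among them 2 of Cd74. A read over several pieces counts in each. The 4 groups were fitted in 1 edgeR 4.0.16 quasi-likelihood model (TMM, filterByExpr, 15 residual degrees of freedom, R 4.3.3), with calls at a Benjamini-Hochberg adjusted p under 0.05. Likeness used log2(CPM + 0.1) after group means were taken out.

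The members and lists were chosen with earlier results of these data known. Named genes are all members, up to 4 called genes of each list per comparison or else the one with the smallest p, and the 10 most alike, of which 1 is not reported here. Genes named for Chow-F 3 were chosen after their values were seen. Alternatives were DESeq2 1.42.0, its size factors, 2 other filters, only the groups compared, a replicate block, GC offsets, the largest exon piece, each library left out, and PA-F 4 and PA-F 5 left out. The scripts were tested on simulated data.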

Additional observations from a re-analysis of the deposited data

Results flagged for a closer look

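Within the group of 5 chow females, Chow-F 3 lay further from the other 4 than Dixon's 95% critical value allows for 6 of the 7 members. Its levels were 88.0 CPM for H2-Aa, 69.2 for H2-Ab1, 83.4 for H2-Eb1, 235 for Cd74, 6.27 for H2-DMa and 5.11 for H2-DMb1. Ciita, at 2.84 CPM, did not pass that limit. Of 32 combinations of a group and a measure that were examined (7 members and the Cd74 exon ratio in 4 groups), these 6 were found, all in the same library. Chance finds about 1 in 20, and the members vary together, so the 6 are not independent.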

How the results depend on the processing

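With all 19 libraries 0 of 7 members were called by edgeR in each of the 5 contrasts. The count was 0 under every alternative listed in the methods as well, and it was 2 for diet in females in a fit without Chow-F 3, PA-F 4 and PA-F 5 that was chosen after seeing the data. Of single members, 121 of 1008 values had the other sign under an alternative, 79 of them with 1 library left out. Same-numbered libraries deviated together in 2 of 27 pairs at a correlation over 0.1 (median 0.02), so the numbers were not taken to pair samples, and under the replicate block 0 members were called. The values that changed sign follow, as log2 differences, and the cause was not tested.

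With the size factors of DESeq2 in edgeR the sign turned for diet in males H2-Aa 0.00114 and Cd74 0.00106 and for sex on high fat Ciita -0.00423. With DESeq2 it turned for diet in males H2-Aa 0.00135 and Cd74 0.00115 and for sex on high fat Ciita -0.00507. With the replicate number as a replicate block it turned for diet in females H2-Aa 0.0887, for the difference between the sexes H2-Aa 0.11 and H2-Ab1 0.0721, for sex on chow H2-DMa -0.0114 and for sex on high fat Ciita -0.0539. Without PA-F 4 and PA-F 5 it turned for diet in females H2-Aa 0.0199 and for the difference between the sexes H2-Aa 0.0232 and H2-Ab1 0.00101. With GC offsets it turned for diet in females H2-Ab1 -0.11, H2-Eb1 -0.0816, Cd74 -0.0488, Ciita -0.00241 and H2-DMa -0.0755, for diet in males H2-Eb1 0.00733 and Cd74 0.0268, for the difference between the sexes H2-Aa 0.00355, H2-Eb1 -0.0889, Cd74 -0.0756 and H2-DMa -0.0376 and for sex on high fat Ciita -0.13 and H2-DMb1 -0.0742. With the largest exon piece of each gene it turned for diet in males H2-Ab1 -0.048 and H2-DMa 0.0679 and for the difference between the sexes H2-Aa 0.027 and H2-Ab1 0.0959. Without Chow-F 3, PA-F 4 and PA-F 5 together it turned for diet in females H2-Aa 0.47 and H2-DMb1 0.16, for the difference between the sexes H2-Aa 0.47, H2-Ab1 0.49 and H2-DMb1 0.23 and for sex on chow H2-Aa -0.25, H2-Ab1 -0.23, H2-Eb1 -0.17, Cd74 -0.29, H2-DMa -0.30 and H2-DMb1 -0.085. With each library left out in turn the values spread as follows. Ranges for diet in females were Cd74 -0.062 to 0.50, Ciita -0.10 to 0.27, H2-Aa -0.17 to 0.44, H2-Ab1 -0.14 to 0.49, H2-DMa -0.11 to 0.47, H2-DMb1 -0.31 to 0.10, H2-Eb1 -0.13 to 0.47. Ranges for diet in males were Cd74 -0.096 to 0.0597, H2-Aa -0.13 to 0.0584, H2-Ab1 -0.0487 to 0.11, H2-DMa -0.15 to 0.0218, H2-DMb1 -0.19 to 0.0384, H2-Eb1 -0.11 to 0.052. Ranges for the difference between the sexes were Cd74 -0.056 to 0.51, H2-Aa -0.16 to 0.44, H2-Ab1 -0.19 to 0.44, H2-DMa -0.0439 to 0.54, H2-DMb1 -0.24 to 0.17, H2-Eb1 -0.11 to 0.49. Ranges for sex on chow were Cd74 -0.30 to 0.27, H2-Aa -0.25 to 0.35, H2-Ab1 -0.23 to 0.40, H2-DMa -0.30 to 0.28, H2-DMb1 -0.0895 to 0.32, H2-Eb1 -0.18 to 0.42. Ranges for sex on high fat were Ciita -0.19 to 0.18, H2-DMb1 -0.0309 to 0.20. The highest values for diet in females and for the difference between the sexes, and the lowest for sex on chow, are those without Chow-F 3. The Cd74 exon ratio differed between the sexes on chow by 0.0018 against the flanking exons only, by 0.0076 without Chow-F 3, PA-F 4 and PA-F 5, and by -0.0455 to 0.0226 with each library left out. It was called under no alternative. Counts over all genes tested moved by more than 1.5 times between settings, and are given with all 19 libraries and, in brackets, as the range over the alternatives. For diet in females they were 301 higher (13 to 603) and 156 lower (8 to 457), for diet in males 72 higher (21 to 304) and 66 lower (21 to 267), for the difference between the sexes 0 higher (0 to 30) and 0 lower (0 to 19), for sex on chow 313 higher (140 to 916) and 269 lower (121 to 1002), for sex on high fat 1155 higher (360 to 1966) and 713 lower (190 to 1569). The number of libraries limits the precision of all members.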

Other observations

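Library Chow-M 4, which was counted per gene and not per exon piece, took part in no test. As a share of its own 31686627 counts it held, scaled as CPM without TMM, 41.0 of H2-Aa, 36.9 of H2-Ab1, 42.4 of H2-Eb1, 91.4 of Cd74, 2.11 of Ciita, 3.76 of H2-DMa and 2.56 of H2-DMb1. These values are on another scale than the CPM of the other libraries. The other chow males had 99.1 to 115 CPM of Cd74 and 25.2 to 29.2 CPM of H2-Ab1. The level of Cd74 relative to H2-Ab1 cannot be compared between Chow-M 4 and these libraries. In them a read counts in each piece it covers, and 2 pieces of Cd74 were not used.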
